A study of Mus musculus with 2 samples.

Results

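E proteins and their ID inhibitors are 7 genes taken by name: the E protein genes Tcf3, Tcf4 and Tcf12, and the inhibitor genes Id1, Id2, Id3 and Id4. All 7 were in the tables, among 42462 genes with a symbol and 21474 protein-coding genes. They were measured by total RNA sequencing of mouse hematopoietic stem cells (HSC), which form the blood lineages, isolated from bone marrow. The mice were C57BL/6J males, 5 to 6 weeks old. The study had 1 group of 2 biological replicates, with no treatment, mutant or second cell type, so the comparisons are between genes, between transcripts and between the replicates. The labels give separate biosamples but not whether these came from separate animals, so the spread between them may be technical.

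E proteins are basic helix-loop-helix (bHLH) factors that bind the E-box motif in DNA as dimers, with each other or with a tissue-restricted bHLH protein such as TAL1. ID proteins have the helix-loop-helix but no basic region next to it, so an E protein paired with an ID protein does not bind DNA. In blood, E proteins are known for driving B and T cell development and lymphoid priming of early progenitors, and ID proteins for restraining them and for innate lymphoid cell development.

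The helix-loop-helix is the surface on which the families meet, and the stretches of RNA that encode it are shown for Tcf3 and for the 4 ID genes. Tcf3 makes its proteins, E12 and E47, by using 1 of 2 alternative exons that each encode a bHLH domain. On GRCm38 and on the minus strand, the E12 exon is chr10:80412827-80413062 and the E47 exon is chr10:80410398-80410624. Both are given 5′ to 3′ as transcribed, from GENCODE M21, with capitals for bases that differ from the other exon or have no counterpart in it.
E12 exon: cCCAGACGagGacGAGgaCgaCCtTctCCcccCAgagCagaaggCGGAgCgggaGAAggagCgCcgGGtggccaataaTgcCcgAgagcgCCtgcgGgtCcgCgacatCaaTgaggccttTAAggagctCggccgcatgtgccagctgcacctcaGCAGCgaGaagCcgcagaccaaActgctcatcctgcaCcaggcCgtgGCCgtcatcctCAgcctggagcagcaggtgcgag
E47 exon: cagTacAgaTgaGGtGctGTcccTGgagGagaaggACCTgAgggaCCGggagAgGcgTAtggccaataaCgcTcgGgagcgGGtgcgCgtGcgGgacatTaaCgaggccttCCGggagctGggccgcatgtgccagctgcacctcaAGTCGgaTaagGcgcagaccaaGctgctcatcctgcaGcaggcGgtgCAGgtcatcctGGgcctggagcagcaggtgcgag
The exons were 236 and 227 bases long and were identical at 175 of 227 aligned bases (77.1%). Reads inside a shared run cannot by themselves tell E12 from E47.

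For the ID genes, windows of 120 coding bases show the stretch most alike in all 4, which encodes most of the helix-loop-helix. They are from GENCODE M21 on GRCm38, with capitals for the 69 bases that are identical in all 4 genes. The Id1 window is chr2:152736518-152736637 (plus strand), that of Id2 is chr12:25095783-25095902 (minus strand), that of Id3 is chr4:136144002-136144121 (plus strand) and that of Id4 is chr13:48261693-48261812 (plus strand).
Id1: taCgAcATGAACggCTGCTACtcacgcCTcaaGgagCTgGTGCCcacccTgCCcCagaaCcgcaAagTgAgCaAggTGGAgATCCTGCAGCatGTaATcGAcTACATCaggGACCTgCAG
Id2: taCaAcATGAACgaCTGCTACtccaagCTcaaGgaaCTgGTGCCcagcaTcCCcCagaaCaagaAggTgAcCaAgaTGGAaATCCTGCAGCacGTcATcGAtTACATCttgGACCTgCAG
Id3: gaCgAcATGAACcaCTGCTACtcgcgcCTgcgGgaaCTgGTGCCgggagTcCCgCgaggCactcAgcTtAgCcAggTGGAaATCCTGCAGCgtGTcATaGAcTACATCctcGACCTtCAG
Id4: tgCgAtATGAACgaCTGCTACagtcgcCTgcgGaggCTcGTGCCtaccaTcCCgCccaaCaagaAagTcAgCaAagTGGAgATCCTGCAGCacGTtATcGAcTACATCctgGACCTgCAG
Id1 and Id2 were the most alike pair, identical at 98 of 120 bases (81.7%). Id3 was at 70.8% with Id1 and with Id4. The coding sequences around these windows were short, with 444 bases in Id1, 402 in Id2, 357 in Id3 and 483 in Id4, stop codon left out.

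Replicate 1 held 27901074 counts and replicate 2 held 48490188. TPM, the unit of level used here, corrects counts for effective transcript length and sums to the same total in each library, noncoding RNA included. Protein-coding genes took 16.3% of the TPM of replicate 1 and 20.3% of that of replicate 2. Of 14 HSC markers, 13 reached 1 TPM in both libraries, against 44.0% of protein-coding genes. The other, Slamf1, was at 0.42 and 0.43 TPM. Of 10 markers of lymphoid-primed progenitors, 8 also reached 1 TPM in both libraries. The labels do not give the surface markers that defined the cells, and no other cell type was measured. The marker counts therefore cannot tell stem cells from other early progenitors. Markers of maturing cells differed between the libraries: the sum over 15 neutrophil genes was 3217 TPM in replicate 1 and 1244 TPM in replicate 2, and that over 13 erythroid genes was 125 and 258 TPM. In bulk RNA such as this, fewer cells of a type and less RNA per cell cannot be told apart.

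All 3 E protein genes were expressed at similar levels, between 8.85 and 14.7 TPM, and every ID gene lay below every E protein gene. Id2 was the ID gene with the most RNA, at 4.53 and 5.62 TPM. Id1 and Id3 lay near 1 TPM, and Id4 had no count in either library. A gene was called detected at 1 TPM or more in both libraries, and 5 of the 7 members passed, against 44.0% of protein-coding genes and 24.0% of all genes with a symbol. The 2 that did not pass were Id1 and Id4. Id3 passed over all transcripts only, since its transcripts annotated as coding were at 0.64 and 0.21 TPM.

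**Figure D1:**
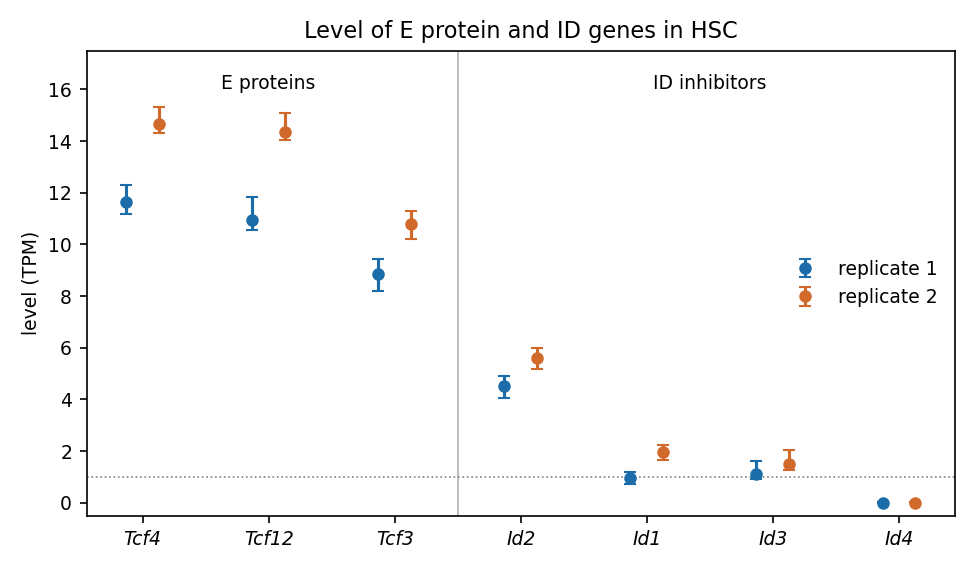
TPM of the 7 genes in each library, with the deposited interval as the vertical bar and a dotted line at 1 TPM. The 3 E protein genes sit between 8.85 and 14.7 TPM, Id2 at 4.53 and 5.62, Id1 and Id3 between 0.94 and 1.97, and Id4 at 0.

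Tcf4 (ENSMUSG00000053477, chr18:69343356-69689079, plus strand) encodes E2-2, the E protein known for plasmacytoid dendritic cell identity. It had 4752 counts and 11.6 TPM in replicate 1 (deposited interval 11.2 to 12.3) and 9287 counts and 14.7 TPM in replicate 2 (14.3 to 15.3), a mean of 13.1 ± 2.14 TPM (SD, n = 2). Its level exceeded that of 88.6% and 88.5% of protein-coding genes. Of 10 plasmacytoid dendritic cell markers, 3 were detected, against 44.0% of protein-coding genes. The list summed to 22.4 and 16.8 TPM, of which Bst2 made 12.1 and 9.35 TPM, and Siglech was at 0 in both libraries.

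Tcf12 (ENSMUSG00000032228, chr9:71842688-72111871, minus strand) encodes HEB, a partner of E2A in T cell development. It had 3181 counts and 10.9 TPM in replicate 1 (10.6 to 11.8) and 6660 counts and 14.4 TPM in replicate 2 (14.0 to 15.1), a mean of 12.6 ± 2.42 TPM (SD, n = 2). Within the Tcf12 span and on its strand lie 7 gene models of unclear coding status, which together held 1229 and 1525 counts, equal to 38.6% and 22.9% of the count of Tcf12 itself. The highest of them by mean TPM was Gm37663, with 1.42 and 2.06 TPM, although Gm37023 was higher in replicate 1 (1.53 and 0.64 TPM). Whether reads from Tcf12 introns were assigned to them was not tested.

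Tcf3 (ENSMUSG00000020167, chr10:80409514-80433647, minus strand) encodes E2A, which B cell development requires. It had 1508 counts and 8.85 TPM in replicate 1 (8.18 to 9.43) and 3180 counts and 10.8 TPM in replicate 2 (10.2 to 11.3), a mean of 9.82 ± 1.37 TPM (SD, n = 2). No other annotated gene overlaps its span. The 3 E protein genes thus ranged over less than 2-fold in either library, with Tcf3 the lowest in both over all transcripts. On transcripts annotated as coding alone, Tcf12 was the lowest, with 5.49 and 7.83 TPM, against 6.65 and 10.1 TPM for Tcf3 and 10.3 and 13.5 TPM for Tcf4.

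Id2 (ENSMUSG00000020644, chr12:25093799-25097140, minus strand), the ID gene that innate lymphoid cells depend on, had 422 counts and 4.53 TPM in replicate 1 (4.04 to 4.89) and 748 counts and 5.62 TPM in replicate 2 (5.18 to 5.98). The mean was 5.08 ± 0.771 TPM (SD, n = 2), above 73.7% and 74.3% of protein-coding genes. Of 12 natural killer and innate lymphoid markers, 2 were detected, Nkg7 and Rora, against 44.0% of protein-coding genes. The list summed to 16.2 and 17.3 TPM. The other 10 ranged from Prf1, at 0.01 TPM in both libraries, and Eomes, at 0 and 0.07 TPM, to Klrb1c, at 0.91 and 0.99 TPM, and Gata3 passed 1 TPM in replicate 2 alone (0.51 and 1.14 TPM).

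Id1 (ENSMUSG00000042745, chr2:152736251-152737410, plus strand), a BMP-induced gene with a known part in HSC maintenance, had 61 counts and 0.94 TPM in replicate 1 (0.717 to 1.19) and 176 counts and 1.97 TPM in replicate 2 (1.67 to 2.25). Id3 (ENSMUSG00000007872, chr4:136143497-136145755, plus strand), which restrains E2A in developing lymphocytes, had 82 counts and 1.10 TPM in replicate 1 (0.908 to 1.60) and 111 counts and 1.5 TPM in replicate 2 (1.28 to 2.03). These were the members with the fewest counts of those with any. Id1 averaged 1.46 ± 0.728 TPM and Id3 1.30 ± 0.283 TPM (SD, n = 2), close to the middle of the protein-coding genes, with Id1 above 54.0% and 59.8% of them.

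Id4 (ENSMUSG00000021379, chr13:48261228-48266026, plus strand), known mostly from neural and mammary tissue, was listed at 0 counts in both libraries. A count of 0 allows up to 3 counts, or 0.0237 TPM in replicate 1 and 0.0163 TPM in replicate 2, and this covers counting error only. The transcript model behind the tables was 1660 bases long, against 3849 bases in GENCODE M21, so reads on the added bases would not have been counted here. The antisense gene at this locus, A330033J07Rik, was also at 0 in both.

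By level over all transcripts, the order was Tcf4 and Tcf12, then Tcf3, then Id2, then Id1 and Id3, then Id4. Genes of a pair were treated as ordered where one was higher in both libraries and its deposited interval lay clear of the other's each time, which held for 19 of the 21 pairs. Neighbours that could not be ordered were Tcf4 with Tcf12, which differed by 0.09 and 0.03 on the log2(TPM + 0.1) scale, and Id1 with Id3, where Id1 was lower in replicate 1 (-0.21) and higher in replicate 2 (0.37). On the same scale, Tcf4 exceeded Tcf3 1.33-fold and Tcf12 exceeded Tcf3 1.28-fold (log2 difference 0.35 ± 0.08, SD, n = 2). With coding transcripts alone the direction of Tcf12 over Tcf3 turned, to a log2 difference of -0.31 ± 0.06 (SD, n = 2). Id1 was then above Id3 in both libraries, with 0.94 and 1.97 TPM against 0.64 and 0.21 TPM, though the intervals overlapped in replicate 1. Tcf3, over all transcripts the lowest E protein gene, exceeded Id2, the highest ID gene, 1.92-fold (log2 difference 0.94 ± 0.02, SD, n = 2). Id2 exceeded Id1 3.51-fold and Id3 3.71-fold.

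Summed over each class, E protein RNA outweighed ID RNA in both libraries. The E protein genes summed to 31.4 TPM in replicate 1 and 39.8 TPM in replicate 2, against 6.57 and 9.09 TPM for the ID genes. The ratio was 4.78 in replicate 1 and 4.38 in replicate 2, a log2 ratio of 2.18 ± 0.09 (SD, n = 2). By counts, with no division by length, the ratio was 16.7 and 18.5, since the E protein transcripts are longer: the effective length was 4730 bases for Tcf4 and 1078 bases for Id2 in replicate 1. Within the E protein class, Tcf4 held 37.0% and 36.8% of the TPM, Tcf12 34.8% and 36.1%, and Tcf3 28.2% and 27.1%. Within the ID class, Id2 held 68.9% and 61.8%. Protein was not measured.

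The transcript tables hold 57 models of the 7 genes, with the isoform percent, the share of a gene's TPM that each model received. Tcf3 reads fell mainly on E47 models. Models with the E47 exon took 64.9% of Tcf3 in replicate 1 and 77.3% in replicate 2 (5.73 and 8.34 TPM), and models with the E12 exon took 10.5% and 15.9% (0.92 and 1.71 TPM). Of the 2 forms together, E47 made up 86.1% and 83.0%, or 84.5% ± 2.24 (SD, n = 2). The rest of Tcf3, 24.7% and 6.77%, fell on short models, chiefly the noncoding Tcf3-212, which contains the E12 exon within a longer one and received 19.8% and 6.77%. Reads in that exon match both kinds of model, so the E12 share depends on how they were assigned.

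One E47 model, Tcf3-205, held the largest part of Tcf3 in both libraries. It received 3.92 TPM in replicate 1 (3.12 to 4.46) and 5.95 TPM in replicate 2 (5.10 to 6.25), or 44.3% and 55.2% of the gene. Its first exon begins at chr10:80431012, whereas Tcf3-202, a long E47 model, begins upstream of it at chr10:80433635. Among E12 and E47 models, those with the downstream first exon held 3.92 and 5.95 TPM, and those with the upstream one held 2.73 and 4.10 TPM. The downstream value came from Tcf3-205 alone, which ends at chr10:80409620. Tcf3-203 (E12) and Tcf3-214 (E47), which start nearby, end short of that, at chr10:80410054, and received 0 TPM. First exon, 3′ end and choice of E12 or E47 are thus tied together in these models, which bears on both comparisons. The upstream E12 reads sat on different models in each library: Tcf3-210 received 10.5% and 1.23%, and Tcf3-206 received 0% and 14.7%. Likewise the E47 model Tcf3-208 received 0% and 14.4%, so the class sums were closer between libraries than single models of nearly the same sequence.

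Tcf4 was divided between long forms, which begin far upstream and carry both activation domains, and short forms that begin within the gene. The long forms took 54.5% and 53.4% of Tcf4 (6.34 and 7.82 TPM), and the short forms 33.4% and 36.8% (3.89 and 5.39 TPM). Of both together, the long forms made up 62.0% and 59.2%, or 60.6% ± 1.96 (SD, n = 2). The leading models were Tcf4-202 (long) with 29.0% and 23.5%, Tcf4-207 (long) with 22.6% and 29.9%, Tcf4-204 (short) with 20.2% and 18.0%, and Tcf4-203 (short) with 13.2% and 18.8%. These also differ at the 3′ end. In GENCODE M21 Tcf4-202 runs to chr18:69687967, whereas Tcf4-203 and Tcf4-204 stop at chr18:69684528 and chr18:69683445. Reads past the short models fall on long models whatever their start. The shares thus do not measure the start alone, and the SD does not cover this. An alternative splice site that adds 12 bases to the coding sequence was used in models holding 74.7% and 71.5% of Tcf4, against 13.2% and 18.8% for models without these bases. The tables hold 15 Tcf4 models and GENCODE M21 has 62, so forms outside those 15 could not be counted.

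Tcf12 shares differed more widely between the libraries than those of Tcf4. Long coding forms, the source of canonical HEB, took 32.1% of Tcf12 in replicate 1 and 48.9% in replicate 2 (3.51 and 7.03 TPM). The alternative-start form, known as HEBAlt in T cell precursors, took 0.40% and 0%. Models not annotated as coding took 49.7% and 45.5%, among them Tcf12-220 (nonsense-mediated decay) with 19.9% and 8.33%, and the retained-intron models Tcf12-219 with 10.7% and 8.41% and Tcf12-212 with 3.82% and 15.8%. Tcf12-209, a short coding fragment, took 17.8% and 5.57%.

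The long Tcf12 reads sat on different models in each library. Tcf12-201 received 0 TPM in replicate 1 (0.00121 to 0.840) and 6.58 TPM in replicate 2 (5.80 to 6.91). Tcf12-221 received 2.28 TPM in replicate 1 (1.16 to 2.60) and 0 TPM in replicate 2. Both models have identical coding exons and differ only outside them, so together they are 1 coding form, with 20.9% and 45.8% of Tcf12. The form with an extra 72-base exon, mainly Tcf12-202, took 11.7% and 3.10%.

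The ID genes have few models. Id2 has 1 in the tables, and Id1-201 took 94.5% and 100% of Id1. For Id3 the coding model Id3-201 took 58.2% in replicate 1 and 14.2% in replicate 2 (0.64 and 0.21 TPM), and the retained-intron model Id3-203 took 41.8% and 85.9% (0.46 and 1.29 TPM). The exons of Id3-203 cover all 357 coding bases of Id3-201, and these shares rest on 82 and 111 counts in all. The shift also changed the effective length of the gene, which was 860 bases in replicate 1 and 570 bases in replicate 2.

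**Figure D2:**
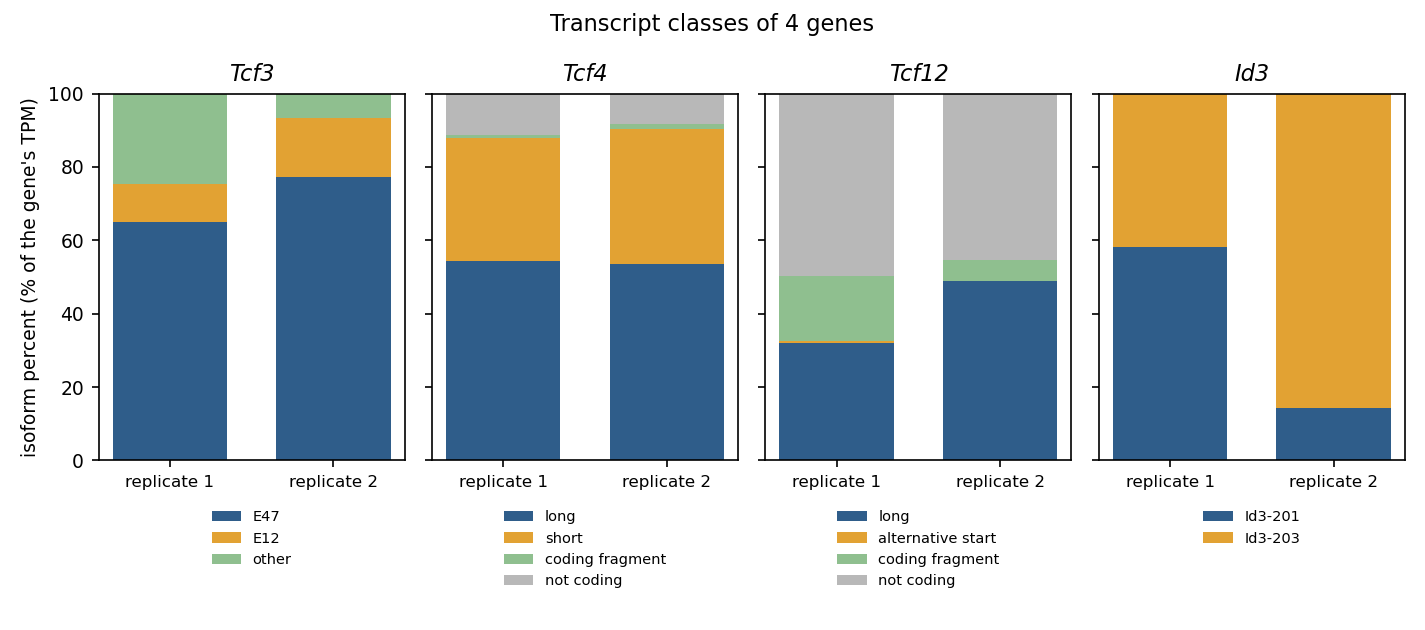
Stacked isoform percent of transcript classes of Tcf3, Tcf4, Tcf12 and Id3, with 1 bar for each library. E47 is the largest class of Tcf3 (64.9% and 77.3%) and the long form that of Tcf4 (54.5% and 53.4%), whereas Id3-203 takes 41.8% in replicate 1 and 85.9% in replicate 2.

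Among member transcripts, 21 had a share of at least 10% in either library and were compared between replicates, and the deposited intervals did not overlap for 14 of them. The same held for 68.7% of 22046 such transcripts of protein-coding genes with a mean of at least 1 TPM, so the members' count is near that of genes at large. The 14 were 5 of 7 for Tcf12, 3 of 6 for Tcf3, 2 of 4 for Tcf4, both for Id3, and the leading models of Id1 and Id2. The deposited intervals each describe 1 library and do not cover the spread between biological samples. They hold more than the assignment of reads among models of a gene. Id2, with 1 model, had an interval of 4.04 to 4.89 TPM in replicate 1. The labels give size ranges of 172 to 1452 for replicate 1 and 232 to 1000 for replicate 2, and the part of fragment size in these shares was not tested.

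At the gene level, all 6 members with counts had the higher TPM in replicate 2, and none was called apart between the replicates. A gene was called apart if its TPM + 0.1 differed by over 2-fold, its deposited intervals were clear of each other and its mean reached 1 TPM. Of 9900 protein-coding genes with that mean, 8.61% were called, 6.54% with the higher value in replicate 2 and 2.07% in replicate 1. The E protein genes differed by log2 0.28 (Tcf3), 0.33 (Tcf4) and 0.39 (Tcf12), replicate 2 over replicate 1, and Id2 by 0.31, while the median of those protein-coding genes was 0.29. Relative to that median the 4 genes differed by -0.01, 0.04, 0.10 and 0.01. Intervals were clear of each other between libraries for 5 of the 6 members with counts, all but Id3. The same held for 71.1% of the 9900 protein-coding genes, a set that leaves out Id4.

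Id1 was the member furthest apart. It differed by log2 0.99, just inside the 2-fold limit, and its plain TPM ratio was 2.10. That difference exceeded those of 93.3% of the protein-coding genes. In CPM, counts scaled to the library total, Id1 was 2.19 in replicate 1 and 3.63 in replicate 2, a log2 difference of 0.73 with a 95% counting interval of 0.30 to 1.18. Id3 turned direction with the unit. Its log2 difference, replicate 2 over replicate 1, was 0.42 in TPM and -0.36 in CPM, where the counting interval of -0.79 to 0.07 includes 0. Between the same libraries the neutrophil sum given above was lower in replicate 2 and the erythroid sum higher, and their part in these differences was not tested.

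**Figure D3:**
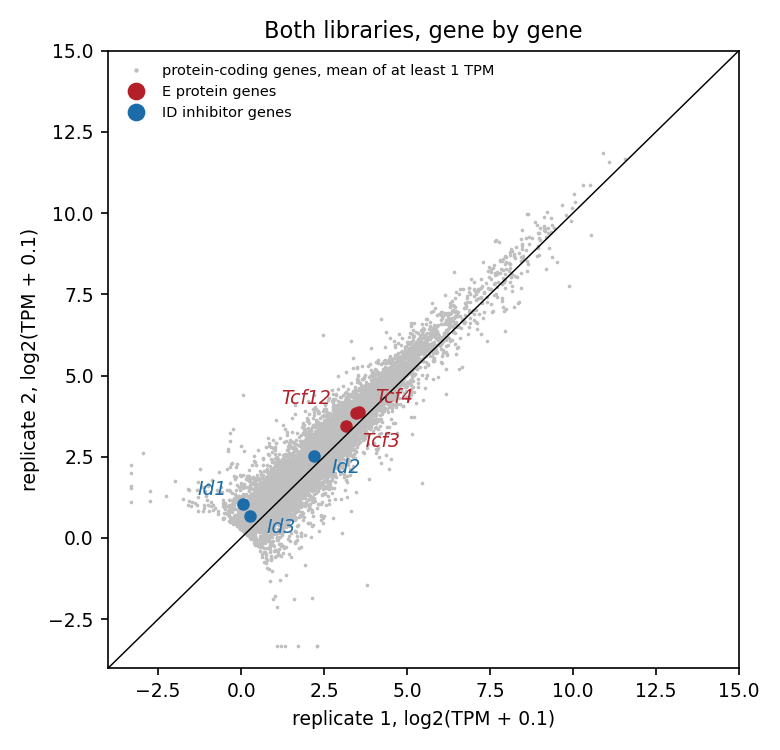
Level of each protein-coding gene with a mean of at least 1 TPM in replicate 1 (horizontal) and replicate 2 (vertical), both as log2(TPM + 0.1), with the 6 members that have counts marked and a line of equal level. All 6 lie above the line, as does the bulk of the genes, and Id1 lies furthest above it (log2 difference 0.99).

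Among 34 tissue-restricted bHLH genes whose proteins pair with E proteins, 2 were detected, against 44.0% of protein-coding genes, and 25 had no count. These 2 were Lyl1, with 8.85 and 8.56 TPM, and Tal1, with 5.41 and 7.86 TPM, both known as E protein partners needed in HSC. Tcf15, which marks quiescent HSC, followed with 0.69 and 2.17 TPM, and Tal2, an oncogene of T cell leukaemia, had 0.01 and 0.10 TPM. The lowest with a count, Atoh8 and Tcf24, were at 0.01 TPM or less. Myod1 and Twist1, of muscle and mesodermal cells, were among the 25. The summed TPM of the list, 15.1 and 18.8, was below the summed E protein level of 31.4 and 39.8 TPM.

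Cofactors of E protein complexes were detected in 14 of 18 cases, against 44.0% of protein-coding genes. Their median was 4.94 and 5.44 TPM, against 0.51 and 0.53 TPM over all protein-coding genes. Lmo2, the bridging subunit of the TAL1 complex, had 130 and 176 TPM, more than any E protein gene. Ldb1, its partner scaffold, had 30.0 and 41.9 TPM, the histone demethylase Kdm1a 20.2 and 25.0 TPM, and Ssbp2, which stabilizes LDB1, 17.4 and 15.3 TPM. The lowest was Ldb2, with 0.14 and 0 TPM.

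Genes described as E protein targets in lymphoid development were detected in 16 of 40 cases, near the 44.0% of all protein-coding genes, with a median of 0.745 and 0.790 TPM. The highest were Dntt, which adds bases at antigen receptor joints (92.8 and 91.8 TPM), the cytokine receptor Flt3 (57.9 and 53.2 TPM), the immunoglobulin heavy chain gene Ighm (60.7 and 47 TPM) and the cell cycle inhibitor Cdkn1b (11.6 and 20.0 TPM). Of 10 markers of lymphoid-primed progenitors, 7 are also in the target list, Dntt, Flt3 and Ighm among them. Detected were 8 of the 10, against 44.0% of protein-coding genes, with sums of 290 and 288 TPM. Chosen after their values were seen, Il7r, the receptor of early lymphocytes, had 1.34 and 1.37 TPM, the recombinase gene Rag1 0.51 and 0.23 TPM, and the B lineage factor Ebf1 0.09 and 0 TPM. Pax5, Ptcra, Igll1 and Vpreb3, genes of committed B and T precursors, had no count in either library, and the lowest with a count was Spib at 0.04 and 0 TPM. The deposited interval of Pax5 nonetheless ran from 0.245 to 1.17 TPM in replicate 1 and from 0.180 to 1.28 TPM in replicate 2, past 1 TPM, whereas the upper bounds of Ptcra, Igll1 and Vpreb3 were at most 0.113 TPM. That of Ebf1 was 0.107 to 0.535 TPM in replicate 1 and 0.0219 to 0.391 TPM in replicate 2, above the listed level in both. Of 10 B cell markers, 8 of them also in this list, 1 was detected, against 44.0% of protein-coding genes. The sum of the 10 was 5.78 and 3.97 TPM. Of 10 T cell markers, 4 were detected, near the 44.0% of protein-coding genes, and the sum was 16.3 and 14.8 TPM. The detected ones were Lat (7.14 and 6.26 TPM), Lck (5.87 and 5.55 TPM), Cd3g (1.49 and 1.59 TPM) and Cd4 (1.61 and 1.19 TPM), while Cd8a, Cd8b1 and Trac were at 0.

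Genes of BMP and SMAD signalling, which acts on the Id genes, were detected in 14 of 27 cases, not far from the 44.0% of all protein-coding genes. Their median was 1.27 and 1.53 TPM. The list mixes activators with inhibitors of the pathway, such as Smad6, Smad7 and Smurf2, and holds the TGF-beta receptor genes Tgfbr1 and Tgfbr2. The count is therefore no measure of Id induction. The highest were Smad2 with 12.5 and 16.6 TPM, the common mediator Smad4 with 7.66 and 12.6 TPM, the ubiquitin ligase Smurf2 with 7.57 and 10.4 TPM, and Smad5 with 8.14 and 8.15 TPM. Of the BMP type I receptors, chosen after their values were seen, Acvrl1 had 0.78 and 0.40 TPM, Bmpr1a had 0.27 and 0.44 TPM, Acvr1 had 0.28 and 0.22 TPM, and Bmpr1b had no count. For Acvrl1 the deposited interval was 0.846 to 1.75 TPM in replicate 1 and 0.445 to 1.09 TPM in replicate 2. Both intervals lay above the listed level and ran past 1 TPM. The lowest with a count was the ligand gene Bmp2, with 0.05 and 0.08 TPM.

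Genes for turnover of ID and E proteins were all detected, 12 of 12, against 44.0% of protein-coding genes. Their median was 9.73 and 12.6 TPM. The chaperone gene Hspa5 had 131 and 194 TPM. The deubiquitinase gene Usp1 had 22.9 and 30.5 TPM, and Usp47, another, had 16.3 and 22.5 TPM. USP1 is known for stabilizing ID proteins. The lowest was Skp2, a ubiquitin ligase subunit, with 2.12 and 2.58 TPM.

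**Figure D4:**
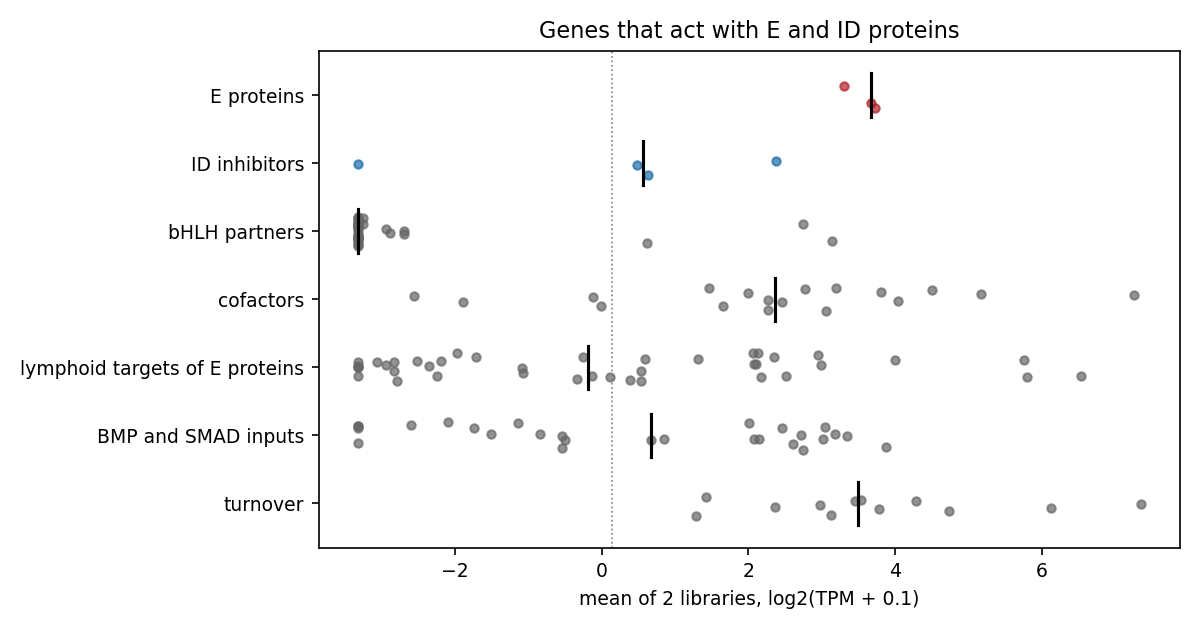
Mean TPM of the 2 libraries, as log2(TPM + 0.1), for the E protein genes, the ID genes and 5 lists of genes that act with them, with 1 point for each gene, a vertical bar at each list's median and a dotted line at 1 TPM. Most bHLH partners lie at the left edge, where no count was found, whereas all turnover genes lie right of the line.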

How the data were processed

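Per the file headers, the deposited tables hold expected counts, which need not be whole, with TPM, FPKM and a posterior mean of each. The deposited lower and upper bounds for TPM are treated as a score, since they need not sum to a constant. The deposited transcript tables add the isoform percent. The authors scaled TPM over every feature. Per the sample text files, the build was mm10 and the gene models were GENCODE M4. No aligner or counter, use of strand or level of the deposited bounds is given in the sources used here.

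Names, positions and exon structures are those of GENCODE M21, joined on the unversioned gene identifier (42462 of 43346 genes). Of the 57 member transcripts, 45 have the same length in both versions. A planned comparison of protein sequences was not made. The members and lists were chosen with earlier results of these data known. The text names all members, the 4 highest genes and the lowest with a count of each list, Tal1, Lyl1, Lmo2 and Ldb1, transcripts of at least 10% in either library and overlapping genes with counts, as far as they bear on a result. Other names were chosen after their values were seen. A few list genes that count in the list results are not reported here by name.

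No differential test was possible with 1 group, and genes of like pattern were not searched because 2 libraries give 1 difference per gene. Ratios used a pseudocount of 0.1. Intervals on CPM are exact binomial ones at 95% and cover counting error only. The rule for genes apart between replicates was tried on simulated counts that held counting error alone. These used counting bounds in place of the deposited ones and no minimum TPM. They therefore do not show how the rule performs on these libraries. Alternatives were other thresholds, pseudocounts and units, posterior means, TMM (edgeR 4.0.16) and DESeq2 (1.42.0) scaling of rounded counts, TPM rescaled over protein-coding genes, and each library alone. Python 3.11.15 was used.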

Additional observations from a re-analysis of the deposited data

How the results depend on the processing

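No paired analysis was possible because there was 1 group and no comparison between groups. The summed E protein over ID log2 ratio, 2.18, was 4.13 in CPM without division by length, 2.06 with a pseudocount of 1, 2.46 without members below 1 TPM, and 1.93 with coding transcripts alone, an alternative chosen after seeing the data, as were the absence of a pseudocount and the single-library counts for lists. With no pseudocount, 1 member, Id1, was called apart between replicates, against 0. Rescaled over protein-coding genes, TPM of the E protein genes was 54.3 and 53.2 for Tcf3, 71.4 and 72.2 for Tcf4 and 67.1 and 70.7 for Tcf12, and 6 members were detected. At 0.5 TPM 6 members were detected and at 2 TPM 4. Lymphoid targets detected were 22 at 0.5 TPM and 13 at 2 TPM. With coding transcripts alone, Tcf12 over Tcf3 was -0.31 on the log2 scale, against 0.35, because models not annotated as coding hold much of Tcf12. In single libraries, 5 to 6 members were detected, 19 pairs were ordered, the log2 ratio was 2.12 to 2.24, E47 made up 83.0% to 86.1% of E47 and E12, long forms 59.2% to 62.0% of long and short Tcf4 and 32.1% to 48.9% of Tcf12, and Id3-203 41.8% to 85.9% of Id3. Detected list genes in single libraries were 2 to 3 for bHLH partners, 14 to 16 for cofactors, 17 to 18 for lymphoid targets, 14 for BMP and SMAD inputs and 12 for turnover. With TMM or DESeq2 scaling of counts, Id3 was lower in replicate 2 by -0.37 on the log2 scale, as in CPM. Depth limits Id1 and Id3, with 61 to 176 counts, and their transcript shares, and Id4, where a count of 0 allows up to 3 counts.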
